A study of Gallus gallus with 100 samples.

Results

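Transporters that carry amino acids, and the neurotransmitters made from them, across the membranes of cells and vesicles were followed in the pituitary glands of growing broiler chickens. The set was chosen by gene symbol: every gene of the families SLC1A, SLC3A, SLC6A, SLC7A, SLC17A, SLC18A, SLC36A, SLC38A and SLC43A that was listed at any age, which gave 53 of the 18685 genes in the series. By family there were 14 genes of SLC6, 11 of SLC7, 10 of SLC38, 6 of SLC1, 4 of SLC17, 3 of SLC18, 2 of SLC36, 2 of SLC43 and 1 of SLC3. SLC7A6OS, a gene on the strand opposite SLC7A6, is caught by its symbol and is not a transporter, which leaves 52.

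Neurons release glutamate, GABA and glycine from vesicles that are filled by transporters of the SLC17 and SLC32 families, while SLC18 transporters load acetylcholine and monoamines. The SLC1 and SLC6 proteins of the cell surface then clear the transmitter, in the mammalian brain largely into astroglia, where glutamate is turned into glutamine and handed back through SLC38 proteins. The SLC7, SLC36, SLC38 and SLC43 families also feed amino acids to protein synthesis in every cell. The pituitary joins a glandular anterior lobe, which makes the hormones, to a neural lobe of axon endings, glia and the glia-like pituicytes.

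Whole glands came from male broilers of a commercial line, chickens bred for meat, with 1 library per bird. Control birds were kept at 25 °C, and heat-stressed birds, from another house, at 35 to 37 °C for 8 h a day from day 21, so heat and house cannot be told apart. There were 15 control birds at day 21, before any heat, and 10 control and 13 heat-stressed birds at day 22. Day 26, after 2 h of heat, had 6 and 5, and day 32, after 4 h, had 6 and 6. Another 5 and 5 were labelled day 40 week, and day 42 had 10 and 17. The word week in the day 40 labels is not explained, so how long those birds were heated is uncertain. All birds were otherwise untreated, no allele or agent was given, and each bird was sampled once, so the days are different birds.

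The values were FPKM, the fragments of a gene scaled to the length of its model and to the mapped reads of the library, in a separate table for each day. The summed FPKM of a library ran from 226025 to 796179, and 6709 to 10514 genes reached 1 FPKM. The glands did not hold the same tissue at every age by their markers. Growth hormone (GH) was listed at 0 to 92.5 FPKM in the 71 libraries of days 21 to 40 and at 17869 to 157459 in the 27 of day 42, and all 10 anterior lobe markers were called higher in day 42 than in day 22 controls. GFAP, of astroglia, ran from 362 to 1950 FPKM before day 42, where it was listed, and from 0.108 to 11.4 at day 42. The markers of the anterior lobe, which the label pituitary implies, were thus low before day 42. Most tested members of the astroglia and pituicyte list were lower at day 42. Of 3 members tested between day 22 and day 42 controls 2 were lower and 1 higher. Of 5 tested between day 40 and day 42 controls 4 were lower and 1 higher, with a median log2 difference of -4.09. AQP4, FABP7 and VIM had medians of 78.4, 794 and 1512 FPKM before day 42, where listed, and of 0.143, 3.69 and 100 at day 42. RAX, a gene of pituicytes, went from a median of 0.606 FPKM before day 42 to 9.04 at day 42, and SOX9, of glia, from 27.7 to 10.2 FPKM. Of 7 neuron markers tested between day 22 and day 42 controls 2 were higher and 1 lower, with a median log2 difference of 0.07. Of 3 markers of myelin and oligodendrocytes 2 were lower and 0 higher, with a median of -9.66. In whole glands, fewer cells of a type and less RNA per cell cannot be told apart, and the part of this makeup in the results below was not tested. Heat-stressed library 984 of day 42, with 6926 genes at 0, and control library 1012 of day 42, with 6709 genes at or above 1 FPKM, stood apart from the rest. The translation factor EEF1A1 had 16 zeros among the 27 day 42 libraries, so 0 was not read as absence.

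**Figure D1:**
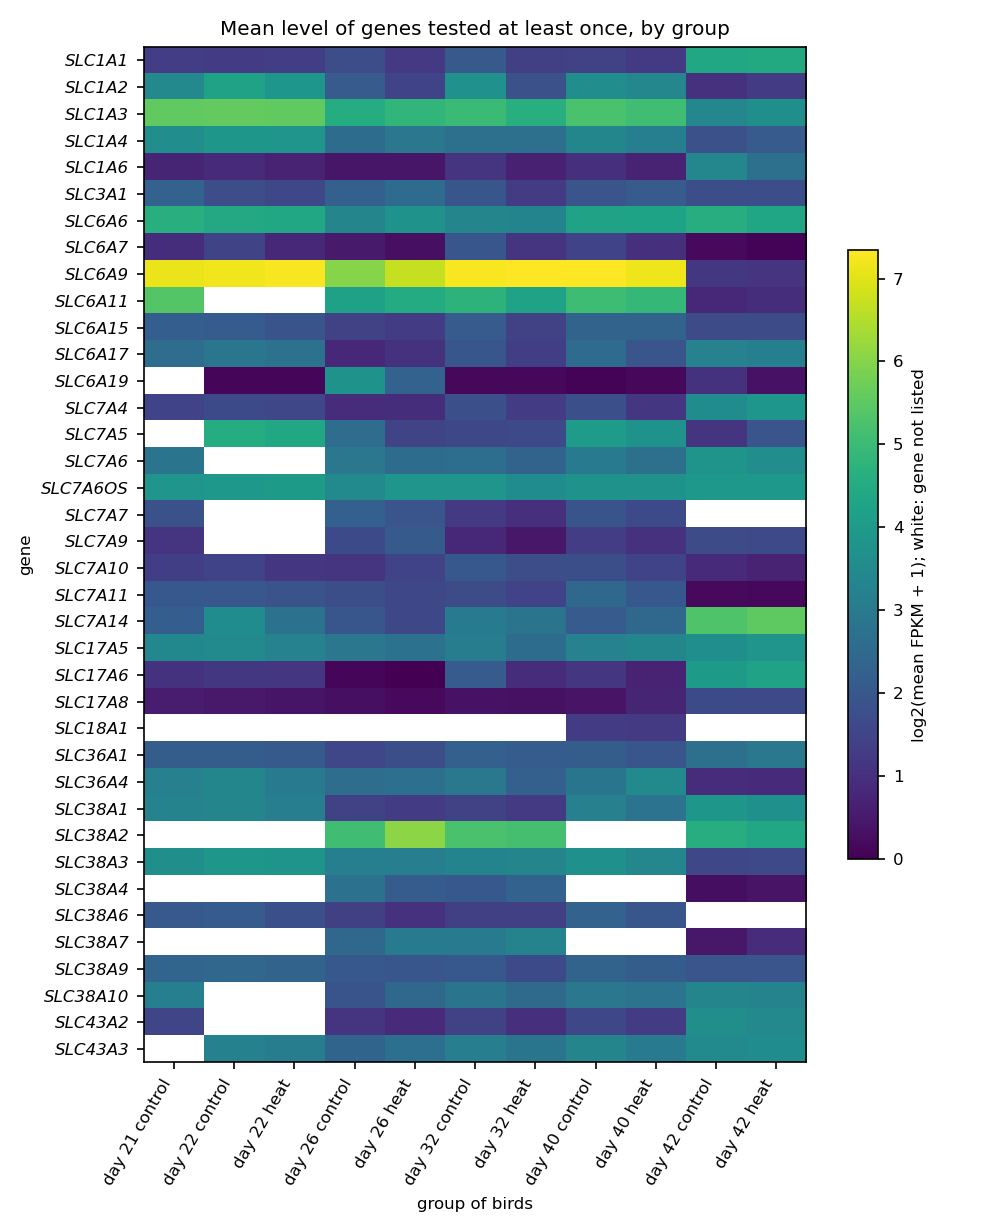
Each cell gives the mean FPKM of a gene in 1 group of birds as log2(mean + 1), for 38 of the 39 genes of the set tested in at least 1 comparison, with white where the table of that day did not list the gene. SLC6A9 is the brightest row up to day 40, at 63.5 to 161 FPKM, and falls to 1.28 and 1.16 FPKM in the 2 groups of day 42.

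Before day 42 the transporter profile was led by carriers that take up glycine and glutamate. SLC6A9, which takes up glycine, had the highest mean of the set in day 21, 22, 32 and 40 controls and held 38.2% of the summed FPKM of the 41 genes listed in day 22 controls. SLC1A3, a glutamate transporter of astroglia in mammals, followed with 12.3%, and SLC7A5, which carries large neutral amino acids such as leucine, with 5.88%. At day 42 the order was another one. SLC7A14, a lysosomal protein of the cationic amino acid family, led the controls with 13.5% of the summed FPKM of 50 genes, ahead of the taurine transporter SLC6A6 with 7.94% and the glutamine transporter SLC38A2 with 7.92%. The summed mean FPKM of the set went from 382 in day 22 controls to 286 in day 42 controls.

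Day 42 controls were compared with day 22 controls by limma, with log2(FPKM + 1) as the value and a gene mean of 1 FPKM or more as the entry limit. A call needed an adjusted p under 0.05 and a 2-fold difference of those values, in which low genes change less than in FPKM. Of the 25 members tested, 14 were called, 6 higher and 8 lower, or 56%, against 33% of all 8301 genes tested, with 12.8% higher and 20.2% lower. Their median log2 difference was -0.10 and that of all genes -0.15. The 2 groups of birds did not overlap in 12 of the 25 members tested, all 12 of them called, against 18.6% of all genes. Entry went by the mean over both groups, so a gene could enter through 1 group alone. Of the called members, SLC1A6 and SLC17A8 had day 22 means below 1 FPKM, at 0.836 and 0.422. SLC7A11 and SLC36A4 had day 42 means below 1 FPKM, at 0.136 and 0.901. Such calls are partly set by the entry limit, which was the same for all genes. Against the 5 controls of day 40, which lie much closer in age, 17 of 31 members were called, 7 higher and 10 lower, with a background of 28.8%, of which 11.2% were higher and 17.6% lower. These comparisons share the day 42 controls.

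The largest fall was that of SLC6A9 (chromosome 8, 19281281 to 19296651, galGal4). Its level in day 22 controls ran from 34.2 through a median of 162 to 180 FPKM, and in day 42 controls from 0.393 through 1.07 to 2.81 FPKM. The 5 day 40 controls stood at 130, 152, 156, 163 and 204 FPKM. Every day 42 bird lay below every earlier bird, over 27 and 71 libraries. The mean fell from 146 ± 43.9 (SD, n = 10) to 1.28 ± 0.83 FPKM (SD, n = 10), a ratio of 114, and the log2 difference was -5.97 ± 0.26 (SE, adjusted p = 4.16e-15). From day 40 it was -6.21 ± 0.25 (adjusted p = 1.03e-12).

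A carrier of GABA was also lower at day 42. SLC6A11 (chromosome 12, 4049890 to 4135912), a GABA transporter found mainly on astroglia in mammals, stood at 28, 28.8, 30.1, 37 and 37.5 FPKM in day 40 controls. In day 42 controls it ran from 0.0327 through 0.144 to 6.64 FPKM, where library 1420 gave the 6.64 and the other 9 were at most 0.237. The log2 difference was -4.59 ± 0.37 (adjusted p = 1.37e-08).

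The SLC1 family divided. SLC1A2 and SLC1A3, which clear glutamate into astroglia in mammals, and SLC1A4, which exchanges alanine, serine and cysteine, were lower at day 42, and the glutamate transporters SLC1A1 and SLC1A6, of neurons in mammals, were higher. SLC1A3 (chromosome Z, 11029501 to 11093853) ran from 31.6 through 45.8 to 63 FPKM in day 22 controls and from 0.449 through 9.55 to 23.4 FPKM in day 42 controls. Its log2 difference was -2.41 ± 0.33 (adjusted p = 1.41e-06). SLC1A2 (chromosome 5, 18317692 to 18391081 in the day 42 table) ran from 3.27 through 14.7 to 35.4 FPKM and then from 0.355 through 1.03 to 1.96 FPKM. At day 40 its 5 controls were spread over 0, 1.8, 13.4, 17.9 and 22.8 FPKM, so the day 40 and day 42 birds overlapped. The log2 difference from day 22 was -3.03 ± 0.29 (adjusted p = 4.35e-09) and from day 40 -1.83 ± 0.56 (adjusted p = 0.0139). The call against day 40 was lost when day 40 library 1279, 1577 or 1579 was left out, with adjusted p of 0.0509 to 0.0606.

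SLC1A1 (chromosome Z, 26924491 to 26984906) had 0.822 through 1.34 to 3.55 FPKM in day 22 controls and 0.728 through 19.3 to 32.4 FPKM in day 42 controls. Library 1012, one of those that stood apart, gave the 0.728, and all other day 42 controls lay above the earlier group. The log2 difference was 2.77 ± 0.39 (adjusted p = 2.08e-06). SLC1A6 (chromosome 28, 697337 to 725841) rose from 0.566 through 0.723 to 1.3 FPKM to 2.82 through 7.71 to 27.3 FPKM, with no overlap and a log2 difference of 2.30 ± 0.26 (adjusted p = 7.23e-08). SLC1A7, the remaining glutamate carrier of the family, stayed at or below 0.862 FPKM in every library and was not tested.

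Transporters that load glutamate into vesicles rose. SLC17A6 (chromosome 5, 2812886 to 2843374 in the day 42 table), found in the brain in glutamate-releasing neurons, was listed at 0.0416 through 0.504 to 5.32 FPKM in day 22 controls and at 6.44 through 13 to 30.2 FPKM in day 42 controls. It was the largest rise of the set against day 22, with a log2 difference of 2.95 ± 0.31 (adjusted p = 2.47e-08) and a ratio of means of 11.8. SLC17A8 (chromosome 1, 47112782 to 47140312), of the same role, rose from 0.136 through 0.383 to 0.849 FPKM to 0.4929 through 1.48 to 4.29 FPKM. Its groups overlapped, and the log2 difference was 1.04 ± 0.21 (adjusted p = 0.00025), just past the 2-fold limit. The vesicular carriers of acetylcholine (SLC18A3) and of monoamines (SLC18A2) were too low to be tested, and the one group mean above 1 FPKM was that of SLC18A3 in day 32 controls, at 1.47 FPKM. SLC18A1, also for monoamines, was listed at day 40 alone, at up to 4.63 FPKM in controls and 4.36 in heat-stressed birds, with a median of 0 in both groups.

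Carriers that feed cells with amino acids went both ways. SLC7A5 (chromosome 11, 17422476 to 17461167) ran from 5.59 through 21.6 to 42.2 FPKM in day 22 controls and from 0.712 through 1.13 to 1.71 FPKM in day 42 controls, with a log2 difference of -3.23 ± 0.28 (adjusted p = 6.61e-10). SLC38A3 (chromosome 12, 3204541 to 3214091 in the day 42 table), which moves glutamine out of astroglia in mammals, went from 3.66 through 14.6 to 18.9 to 1.01 through 2.03 to 3.17 FPKM, a log2 difference of -2.26 ± 0.22 (adjusted p = 4.38e-09). SLC36A4 (chromosome 1, 185280367 to 185386105), a carrier of proline and tryptophan, went from 2.6 through 7.88 to 20 to 0.0759 through 0.771 to 1.9 FPKM, a log2 difference of -2.31 ± 0.28 (adjusted p = 1.63e-07). None of these 3 overlapped between the groups. SLC7A11, which trades glutamate for the cystine used in glutathione, fell from a mean of 2.94 ± 0.60 to 0.136 ± 0.17 FPKM (SD, n = 10 each), and SLC1A4 from a median of 13.9 to 2.89 FPKM, also without overlap.

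SLC7A4, a relative of the cationic amino acid carriers with no settled substrate, rose from 0.455 through 2.23 to 3 FPKM to 5.92 through 10.8 to 17.3 FPKM, a log2 difference of 1.90 ± 0.22 (adjusted p = 1.09e-07). SLC7A14 (chromosome 9, 19223099 to 19246108 in the day 42 table) was listed at 0 in 2 of 10 day 22 controls and at up to 17.9 FPKM, and at 24.5 through 37.6 to 56 FPKM in day 42 controls. Its log2 difference was 2.23 ± 0.50 (adjusted p = 0.000545), and both genes were free of overlap. SLC43A2, a carrier of large neutral amino acids that was not listed at day 22, stood at 0.824, 1.52, 2.01, 2.76 and 2.9 FPKM in day 40 controls and at 7.67 through 10.4 to 17.9 FPKM in day 42 controls. Its log2 difference was 2.04 ± 0.25 (adjusted p = 2.91e-06), without overlap.

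Members without a call between days 22 and 42 spanned log2 differences of -0.59 (SLC38A9, the lysosomal arginine sensor) to 0.52 (SLC36A1, a proton-coupled carrier of lysosomes). Those 2 and SLC7A10 had adjusted p of 0.0128 to 0.0232 at less than 2-fold. SLC6A6 ran from 13 through 21.3 to 25.6 FPKM and from 2.62 through 24.8 to 34.7 FPKM, a log2 difference of -0.10 ± 0.34 (adjusted p = 0.817). SLC43A3 gave 0.25 ± 0.18, SLC38A1, a glutamine carrier of neurons, 0.34 ± 0.31, and the sialic acid and vesicle carrier SLC17A5 -0.11 ± 0.36.

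**Figure D2:**
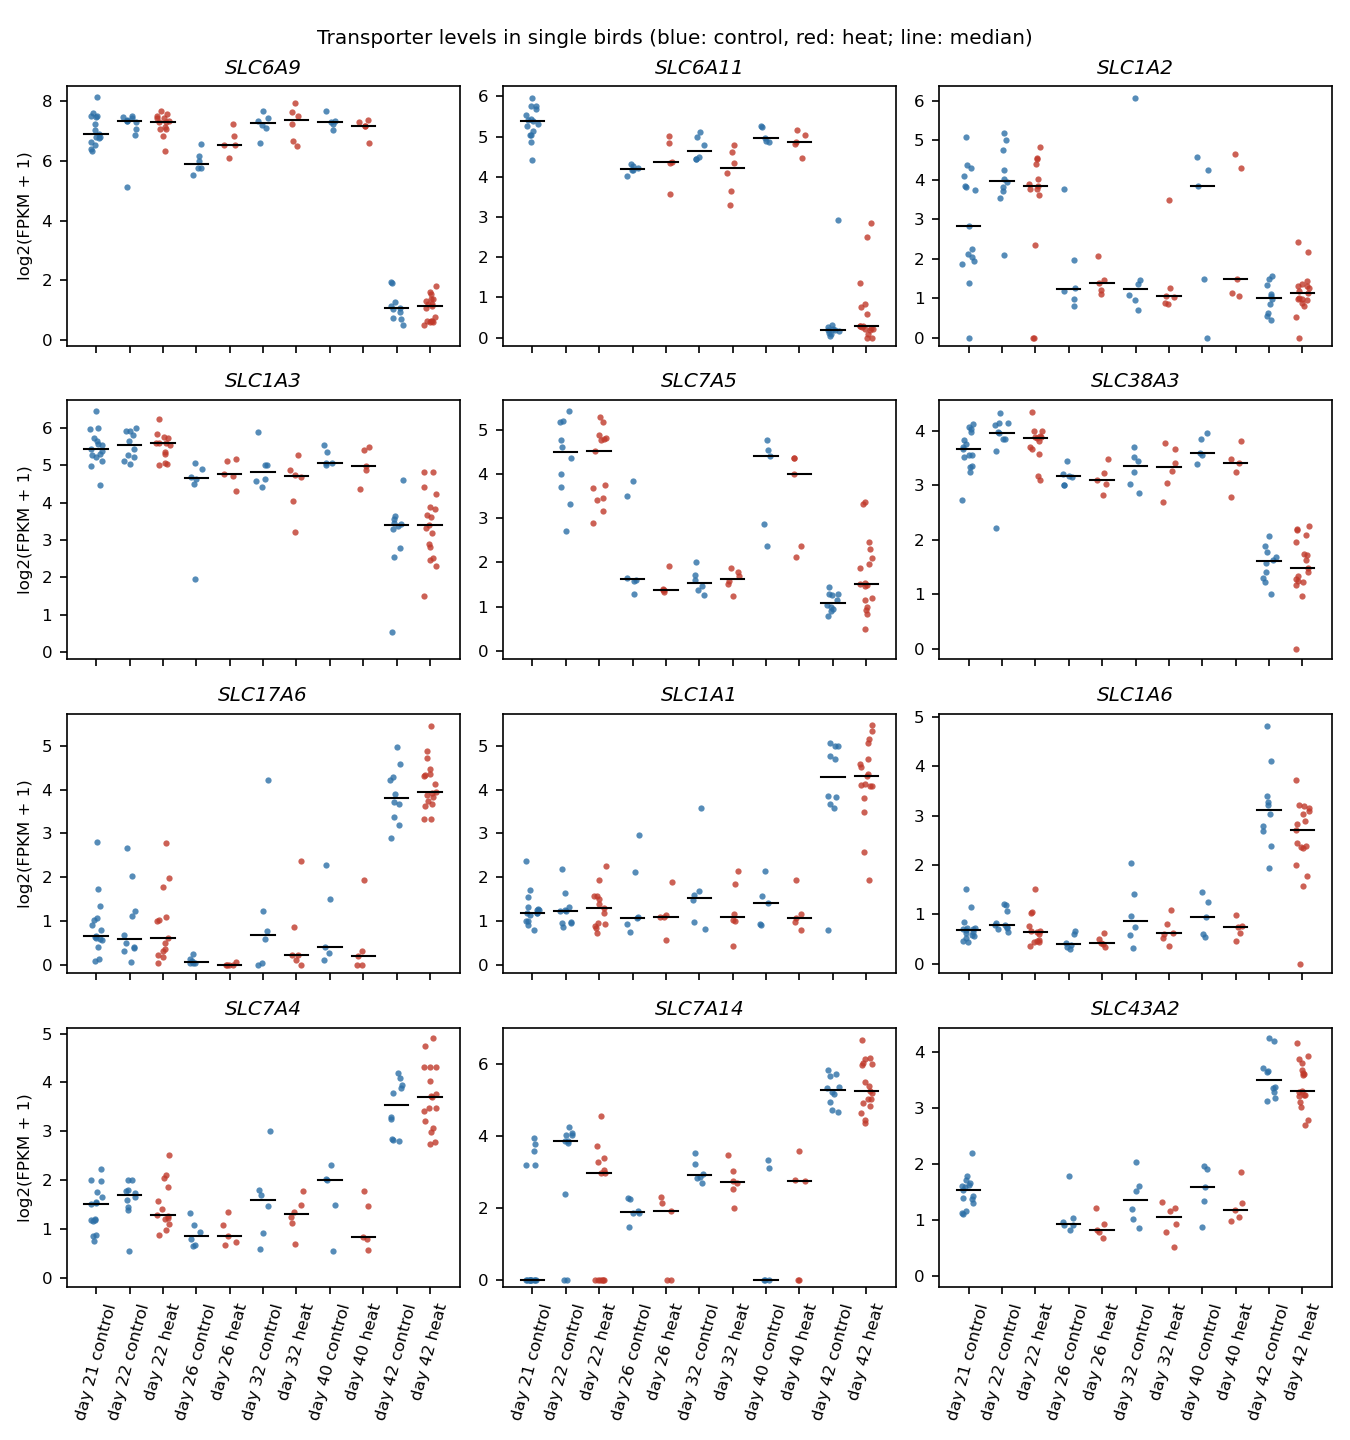
Each point is 1 bird, on a log2(FPKM + 1) axis, for 12 members in the 11 groups, with control birds in blue, heat-stressed birds in red and a line at the group median. SLC6A9, SLC6A11 and SLC38A3 are low in the 2 day 42 groups and SLC17A6, SLC1A1, SLC1A6, SLC7A4, SLC7A14 and SLC43A2 high, while SLC7A5 is also low at days 26 and 32.

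The heat-stressed birds of days 22 and 42 are other animals and give the comparison again. Of 24 members tested, 14 were called, 6 higher and 8 lower, with a background of 32.4%, as 12.3% higher and 20.1% lower. They were the same 14 genes as in the controls, each in the same direction, and 23 of the 24 members had the same sign. SLC6A9 went from 80.4 through 158 to 202 FPKM to 0.42 through 1.17 to 2.49 FPKM, a log2 difference of -6.18 ± 0.15 (adjusted p = 2.79e-27). SLC17A6 went from 0.0275 through 0.517 to 5.91 FPKM to 9.03 through 14.4 to 43 FPKM, a log2 difference of 3.20 ± 0.25 (adjusted p = 1.92e-13). Heat-stressed birds of both ages still share the house and the tables with each other, as do the controls.

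**Figure D3:**
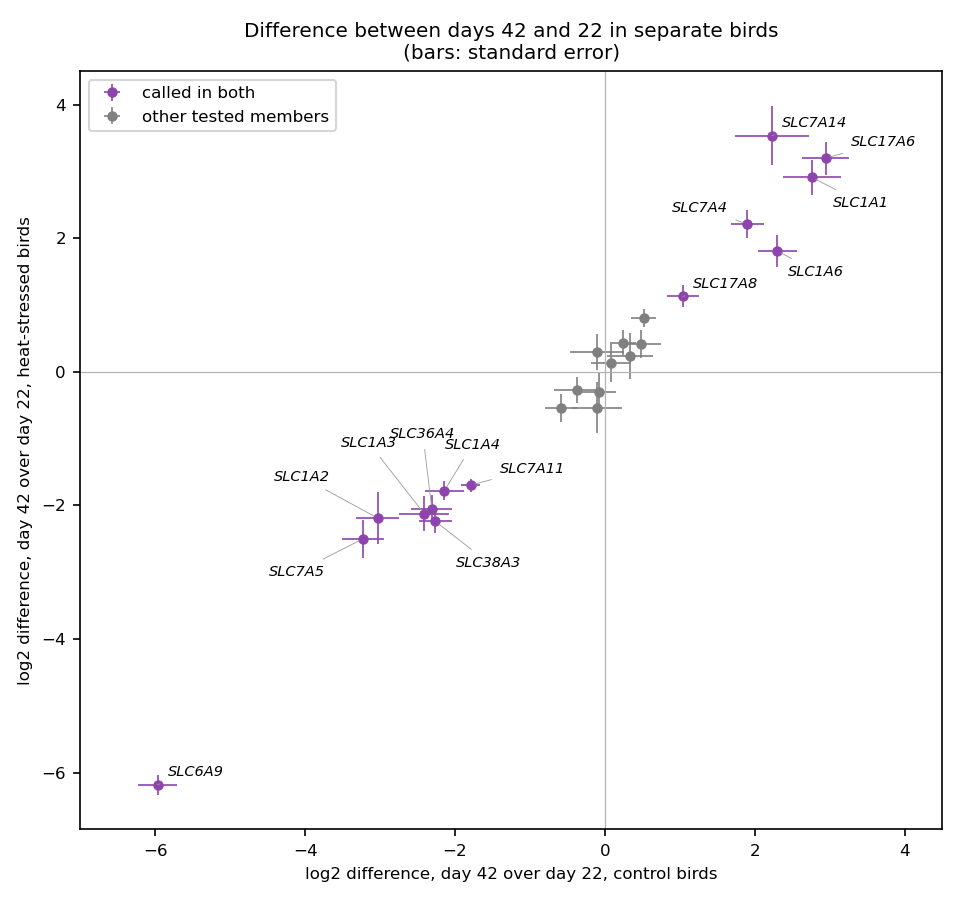
Log2 difference of day 42 over day 22 in control birds (horizontal axis) and in heat-stressed birds (vertical axis) for the 24 members tested in both, with bars of 1 standard error. The 14 called genes lie in the lower left and upper right, from SLC6A9 at -5.97 and -6.18 to SLC17A6 at 2.95 and 3.20.

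Library numbers, the only technical label, differed between the days, since day 42 had none above 1500 and most day 21, 22 and 40 libraries lay there. Within the numbers 1400 to 1500, with 2 day 22 and 6 day 42 controls, 13 of the 14 called genes were tested, and all 13 were called in the same direction. SLC6A9 gave -5.95 there, SLC1A2 -3.95, SLC17A6 1.61 and SLC1A1 2.63. The size of several changes moved with the library number. SLC17A6 stood at 3.06 and 5.32 FPKM in the 2 day 22 controls of that range. In the 8 above 1500 it ran from 0.0416 to 1.32 FPKM. Its log2 difference was 1.61 within the range and 2.95 over all libraries. The fall of SLC1A2 was larger within the range. SLC7A5 stood at 5.59 and 8.95 FPKM in the 2 day 22 controls of that range and at 12.1 to 42.2 in the 8 above 1500, and its log2 difference within the range was -1.80 instead of -3.23. SLC7A14 was listed at 0 in 23 of the 29 earlier libraries numbered 1549 and above and in 2 of the 42 below, an edge chosen after the values were seen, and within 1400 to 1500 its difference was 1.44. In heat-stressed birds numbered 1200 to 1400, with 2 of day 22 and 2 of day 42, 13 called genes kept the call and 1 lost it. With the 6 day 32 birds of that range in place of day 22, 8 kept it, 4 lost it and 1 reversed. The tables also differed in gene models, since 28 of the 53 members had other ends in at least 1 table. Of the 10 tested members with identical ends at days 22 and 42, 6 were called, which were SLC6A9, SLC7A5 and SLC1A4 lower and SLC1A6, SLC7A4 and SLC17A8 higher. Rescaled to the same total per library (TPM), the median of all genes moved from -0.15 to -0.72, and 5 members were called higher and 10 lower.

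Genes that work with these transporters were read from lists, beside the 33% of all genes called. Of 17 tested genes that make or break down transmitters, 8 were lower and 2 higher in day 42 than in day 22 controls, with a median log2 difference of -0.64. The list included GLUL, which makes glutamine from glutamate, from a mean of 228 to 32.8 FPKM, GLDC, which cleaves glycine, from 74.7 to 6.09 FPKM, and GAD2, which makes GABA, from 14.1 to 0.85 FPKM. MAOB, which degrades amines, and PNMT, which makes adrenaline, were higher. Of 21 transmitter receptors tested, 9 were lower and 6 higher (median -0.18). The glutamate receptors GRM3 and GRM7 fell by 5.26 and 3.60 on the log2 scale and the glycine receptor subunit GLRA1 from a mean of 4.9 to 0.0242 FPKM, while the dopamine receptor DRD2, known from prolactin cells, rose from 0.129 to 10.7 FPKM. Of 16 genes of amino acid sensing and of the ATF4 response, 3 were lower and 2 higher (median 0.04). The lower ones included PHGDH and PSAT1, which make serine, the precursor of glycine, from means of 78 to 1.23 and of 114 to 5.51 FPKM.

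Days 26 and 32 differed from day 22 in a smaller group of members. In day 26 controls 8 of 25 members were called lower and 0 higher, with a background of 11.3% called and 9.31% called lower, and in day 32 controls 6 of 25 were lower and 0 higher, with a background of 7.9% called and 5.84% called lower. The comparisons share the day 22 controls. The 6 genes of day 32 were SLC7A5, SLC1A2, SLC38A1, SLC6A6, SLC1A4 and SLC6A17, and all 6 were among the 8 of day 26, which added SLC1A3 and SLC6A9. The median log2 difference of all genes was also below 0, at -0.35 for day 26 and -0.24 for day 32, against -0.69 and -0.32 for the members. After each library was rescaled to its median gene, 5 members were called at day 26 and 4 at day 32.

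SLC7A5, high at day 22, was at 1.43 through 2.09 to 13.3 FPKM in day 26 controls and at 1.4 through 1.9 to 3.02 FPKM in day 32 controls. Day 40 controls had 4.13 and 6.25 FPKM in the 2 libraries numbered below 1549, and 20.2, 22.2 and 26.3 in the 3 others. Day 22 heat-stressed birds ran from 6.39 to 21.9 FPKM below that edge and from 26.2 to 38.3 FPKM from it upwards. No library of day 26 or 32 was numbered 1549 or above. A return of SLC7A5 by day 40 therefore cannot be told apart from library number. Its log2 differences from day 22 were -2.09 ± 0.47 (adjusted p = 0.00168) at day 26 and -2.76 ± 0.35 (adjusted p = 3.21e-05) at day 32. SLC38A1 (chromosome 1, 30873252 to 30903892 in the day 42 table) went from 3.41 through 9.34 to 11.9 FPKM in day 22 controls to 1.03 through 1.53 to 2.46 at day 26 and 0.785 through 1.89 to 2.18 at day 32. Its differences were -1.89 ± 0.20 (adjusted p = 6.83e-06) and -1.86 ± 0.20 (adjusted p = 9.22e-06), with no overlap at either day. Its gene model had other ends in each table, and its neighbour SLC38A2 was listed at days 26, 32 and 42 and at no other day. SLC1A4, whose model was the same in every table, fell by 1.26 and 1.12 on the log2 scale, also without overlap.

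In heat-stressed birds, compared between the same days, 4 of the 8 genes of day 26 and all 6 of day 32 were called lower again, with SLC7A5 at -2.72 and -2.59 and SLC38A1 at -1.80 and -1.85. SLC6A19 was called higher at day 26 there (1.92), and SLC1A3 lower at day 32 (-1.04). Within library numbers 1500 and above, with 3 day 26 and 8 day 22 controls, 6 of the 8 were called, with SLC7A5 at -3.18. Day 32 had only libraries numbered 1200 to 1400, and within that range, with 6 heat-stressed birds of day 32 and 2 of day 22, the 2 called members were SLC7A5 (-1.41) and SLC38A1 (-1.66). SLC1A3 at day 26 rested on control library 845, at 2.88 FPKM, and without it fell short of 2-fold, at -0.77. The call of SLC6A17 at day 32 (-1.05, adjusted p = 0.0473) was lost when any of the controls 1277, 1308, 1309, 1310 and 1314 was left out, with -0.79 to -1.08 and adjusted p of 0.0674 to 0.13.

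Between days 21 and 22 no member of 23 was called by limma, with a background of 0.0643%, and 2 had an unadjusted p under 0.05, as had 10.6% of all genes. Those were SLC7A14 and SLC1A2, both with libraries at 0. Between days 22 and 40, 0 of 25 members were called in controls, with a background of 0.188%, and 2, SLC7A11 and SLC1A4, had an unadjusted p under 0.05, as had 17.2% of all genes. The medians of the members were 0.06 and -0.07 on the log2 scale.

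Levels also varied between birds of the same age. Over the 15 day 21 controls the summed FPKM of 7 neuron markers was compared with each of 22 members with a mean of at least 1 FPKM, on log2(FPKM + 1) scales. Of the 22, 5 had an adjusted p under 0.05 for Pearson's r. The share of all genes related to the marker sum was not computed, so such counts are no result about the members as a set. SLC17A6 had the highest, with Pearson's r = 0.919 (permutation p = 1e-05, the smallest that 100000 resamples can give, adjusted p = 0.00022) and Spearman's rho = 0.864 (permutation p = 9e-05, adjusted p = 0.00121). SLC6A17, which fills synaptic vesicles with neutral amino acids, gave r = 0.844 (permutation p = 0.00017, adjusted p = 0.00187) and rho = 0.839 (permutation p = 0.00011, adjusted p = 0.00121). Without the 2 birds farthest from the median, 1560 and 1573, r was 0.802 and 0.647. SLC6A9 gave r = -0.13 (permutation p = 0.644, adjusted p = 0.787) and rho = -0.111 (permutation p = 0.695, adjusted p = 0.948).

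In the 10 day 22 controls SLC17A6 gave r = 0.958 (permutation p = 0.00013, adjusted p = 0.00286) and rho = 0.879 (permutation p = 0.00167, adjusted p = 0.016), and SLC6A17 r = 0.73 (permutation p = 0.0152, adjusted p = 0.0477) and rho = 0.855 (permutation p = 0.00291, adjusted p = 0.016). In the 13 day 22 heat-stressed birds SLC17A6 gave r = 0.754 (permutation p = 0.00416, adjusted p = 0.0305) and rho = 0.83 (permutation p = 0.00084, adjusted p = 0.00924). SLC6A17 gave r = 0.891 (permutation p = 0.00013, adjusted p = 0.00286) and rho = 0.846 (permutation p = 0.00069, adjusted p = 0.00924). The relation was not particular to these genes or to carriers of neurons. In day 22 controls 7 members had an adjusted p under 0.05, and SLC7A10 (r = 0.88), SLC1A3 and SLC1A1 (0.838 each), SLC6A15 (0.823) and SLC1A2 (0.761) stood above SLC6A17. Without the 2 farthest birds of these controls, SLC1A1 (0.334) and SLC6A15 (0.397) fell below the 0.525 of SLC6A17. SLC7A10 (0.663), SLC1A3 (0.801) and SLC1A2 (0.545) stayed above it. SLC1A3, a carrier of astroglia in mammals, had the highest rho of that group, 0.891 (permutation p = 0.00122, adjusted p = 0.016). In day 22 heat-stressed birds 3 members passed, the third being SLC7A4 (r = 0.759, permutation p = 0.00322, adjusted p = 0.0305). Its r without the 2 farthest birds was 0.382. For SLC17A6 and SLC6A17, without the 2 farthest birds, r was 0.836 and 0.525 in the controls and 0.667 and 0.671 in the heat-stressed birds. Among libraries numbered 1500 and above r was 0.935, 0.836 and 0.762 for SLC17A6 and 0.886, 0.525 and 0.929 for SLC6A17, over 13 birds of day 21, 8 controls and 11 heat-stressed birds of day 22. In the day 22 controls the 2 farthest birds, 1432 and 1437, are also the 2 numbered below 1500. Both checks there use the same 8 birds and count as 1. In all, 66 relations were computed, and p was adjusted over the 22 of each group. The share of all genes was not computed in any of these groups. The markers and the members come from the same libraries, so these relations describe how the levels vary together from gland to gland.

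**Figure D4:**
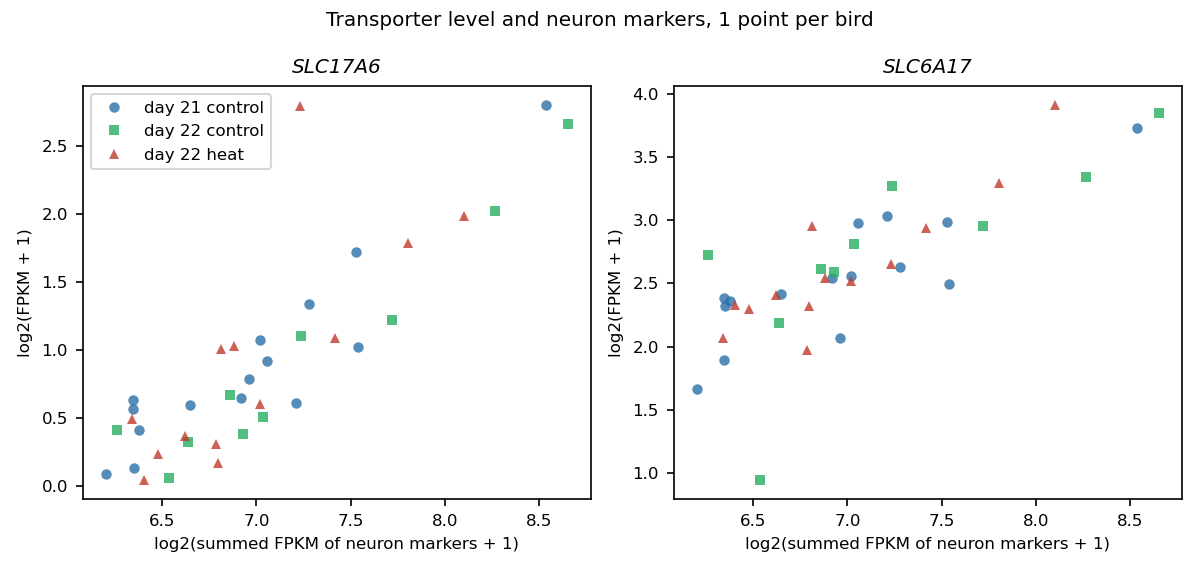
Each point is 1 bird of day 21 or 22, with the summed FPKM of 7 neuron markers on the horizontal axis and the FPKM of SLC17A6 (left) or SLC6A17 (right) on the vertical axis, both as log2(value + 1). The points rise together in all 3 groups, with r from 0.73 to 0.958, and SLC17A6 at day 21 runs from 0.0606 to 5.97 FPKM.

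Control library 1315 of day 32 was the extreme case. It held a neuron marker sum of 1000 FPKM against a median of 138 in its group, together with 66.4 FPKM of SLC1A2, 58.8 of SLC1A3, 17.5 of SLC17A6, 10.9 of SLC1A1 and 7.05 of SLC7A4. The other 5 controls of that day had at most 1.74 FPKM of SLC1A2 and 1.33 of SLC17A6. Control library 845 of day 26 stood apart in another group of carriers. SLC6A19, which takes up neutral amino acids in mammalian kidney and gut, was at 73.2 FPKM there and at no more than 0.736 in the other 5 controls, and the cystine carrier subunits SLC3A1 and SLC7A9 were at 15.1 and 5.97 FPKM. The kidney genes LRP2, SLC34A1, HNF4A and SLC12A1, picked after these values were seen, were at 36.9, 212, 9.66 and 23.5 FPKM in the same library and at no more than 1.27 FPKM in the other controls of that day. Their part in the members' levels was not tested. In the 5 heat-stressed birds of day 26 SLC6A19 ran from 0.0266 through 4.56 to 6.78 FPKM and SLC34A1 from 0.166 through 3.72 to 13.4 FPKM.

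Heat-stressed and control birds were compared at each age, where limma called 0 members. On days 22, 26, 32, 40 and 42 the tested members numbered 25, 32, 34, 32 and 28, with backgrounds of 0.133%, 0.584%, 0%, 0% and 0%, and 1, 4, 2, 2 and 1 members had an unadjusted p under 0.05, as had 4.93%, 13.7%, 5.92%, 4.71% and 2.62% of all genes. A fit over all 5 days, with day as a term, also called 0 of 25 (background 0.183%, 2 members and 6.08% of all genes with an unadjusted p under 0.05), and so did the test for a heat difference that was unequal between days (background 0.183%, 0 members and 3.86% of all genes with an unadjusted p under 0.05). In the fit over all days the 95% interval of each of the 25 members lay within 2-fold of FPKM + 1, with log2 bounds from -0.88 to 0.38. Low genes change less on this scale than in FPKM, so their FPKM was not bounded to 2-fold. SLC6A19 had means of 2.38 FPKM in controls and 0.591 in heat-stressed birds, with 1 control library, 845, at 73.2. At single days the limits were wider. On the same scale the interval lay within 2-fold for 22 of 25 members at day 22 and 15 of 32 on day 26. It did so for 20 of 34 on day 32, 18 of 32 on day 40 and 23 of 28 on day 42.

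The values nearest to a difference were these. At day 26 SLC6A9 was at 45.4 through 58.7 to 94.2 FPKM in controls and at 68.4, 91.2, 91.6, 114 and 151 FPKM in heat-stressed birds, a log2 difference of 0.68 ± 0.22 (adjusted p = 0.223). SLC38A10, a glutamine carrier, was at 0.825 through 3.15 to 3.84 FPKM and at 4.25, 4.32, 4.38, 4.4 and 5.04 FPKM, without overlap, where 3.12% of all genes had none, and with a log2 difference of 0.61 ± 0.23 (adjusted p = 0.286). Library numbers were unbalanced at day 26, where 3 of the 6 controls and 0 of the 5 heat-stressed birds were numbered below 1100. At day 42 SLC7A5 was higher in heat-stressed birds by 0.60 ± 0.26 (adjusted p = 0.999), with 0.401 through 1.83 to 9.26 FPKM against 0.712 through 1.13 to 1.71 FPKM, and SLC1A6 gave -0.65 ± 0.32 (adjusted p = 0.999). Over all days SLC1A6 gave -0.33 ± 0.12 (adjusted p = 0.635) and SLC7A11 -0.15 ± 0.07 (adjusted p = 0.805). The other 2 smallest at a day were SLC38A6 and SLC7A14 at day 22 (-0.37 and -1.19, adjusted p of 0.934 and 0.991), SLC38A9 and SLC6A11 at day 32 (-0.38 and -0.58, adjusted p = 0.746 for both) and SLC7A11 and SLC36A4 at day 40 (-0.41 and 0.57, adjusted p = 0.934 for both).

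Most members leaned lower in heat-stressed birds at day 22, with 22 of 25 below 0 and a median of -0.10 against -0.02 for all genes, at day 32, with 26 of 34 below 0 and medians of -0.28 and -0.17, and at day 40, with 26 of 32 below 0 and medians of -0.20 and -0.05. At days 26 and 42 the members were even, with 16 and 14 on each side of 0. The members were measured in the same birds, so these signs are not independent, and the share of all genes below 0 was not counted. Of the lists, 1 of 17 tested genes of transmitter synthesis and breakdown was called lower over all days, SRR, which makes D-serine (-0.98, adjusted p = 0.0118), and 1 of 17 genes of amino acid sensing was called higher at day 26, MTOR (1.99, adjusted p = 0.0448).

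**Figure D5:**
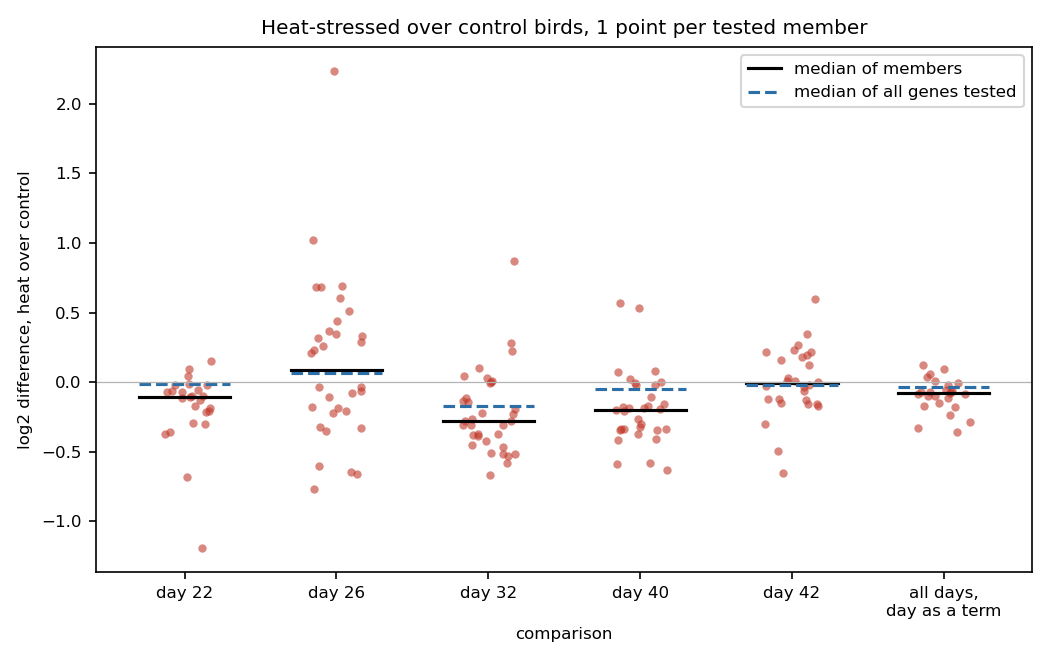
Each point is the log2 difference of heat-stressed over control birds for 1 member, at each day and in the fit with day as a term, with a solid line at the median of the members and a dashed line at the median of all genes tested. The spread is widest at day 26, where SLC38A2, listed at 0 in 2 of the 6 controls, reaches 2.23. It is narrowest in the fit over all days, at -0.36 to 0.12.

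The remaining members were low or listed at few ages. Of the 53, 39 were tested at least once, 20 of them were called in at least 1 comparison of days, and 14 were never tested. The 14 were SLC1A7, SLC6A2, SLC6A4, SLC6A5, SLC6A13, SLC6A14, SLC6A20, SLC7A2, SLC7A13, SLC17A9, SLC18A2, SLC18A3, SLC38A8 and SLC38A11. They include the carriers of noradrenaline (SLC6A2), with medians of 0.368 to 0.986 FPKM up to day 40 and of 0.0993 and 0.1 at day 42, and of serotonin (SLC6A4), with medians of at most 0.44 FPKM. SLC6A5, the glycine carrier of glycine-releasing neurons, had a median of 0 in every group. SLC38A2 could be read at days 26, 32 and 42, with medians of 43.7, 34.4 and 23.9 FPKM in controls and a range of 1.67 to 45.2 FPKM in those of day 42, although 2 of the 6 day 26 controls listed it at 0. SLC38A4, of the same family, had medians of 6.15 and 2.82 FPKM in controls of days 26 and 32 and of 0.181 FPKM in those of day 42. The gene models of SLC1A7, SLC3A1, SLC18A1, SLC18A2, SLC36A1 and SLC38A8 overlap another gene, so reads could be shared and their levels are uncertain.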

How the data were processed

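RNA of 100 pituitary glands was sequenced by the authors from stranded libraries on an Illumina HiSeq 2500. Per the submitters' processing notes and the study's methods, Bowtie, TopHat and Cufflinks were used with galGal4, and their versions are not given in the sources used here. The deposited values are FPKM, which the authors wrote as 1 table per day. Read depth is unknown from these tables, so no counting intervals are given. Of the 100 samples, 98 had a column, and 3 columns matched no labelled sample and were not used.

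limma 3.58.1 (R 4.3.3) tested the differences, with its trend option and a pseudocount of 1 on the log2 scale. A gene entered where its mean over the libraries in the fit reached 1 FPKM, and a fit held no libraries but those of its 2 groups, except for the fits over all days. P-values were adjusted by Benjamini-Hochberg over all genes tested, and they measure the spread between birds. Heat calls needed an adjusted p under 0.05, and day calls a 2-fold difference as well. Tables of different days were normalised separately, so levels set across days carry that limit. The code was tested on simulated data. Relations with neuron markers (7 of 9 listed ones) used permutation tests in Python 3.11.15 with numpy 2.4.6, and were added after the data were examined. The members and lists were chosen with earlier results of these data known.

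Values are given in full for the 6 largest rises and 6 largest falls from day 22 to day 42 among called members without overlap, the 3 highest members of day 22 and day 42 controls, SLC6A9, called members or the 2 of smallest adjusted p in each heat comparison, and members called between days 21 and 22. Further genes were named after their values were seen. Alternatives were a pseudocount of 0.1, no filter, other scalings, no minimum fold, ranges of library numbers and leaving out libraries. Promoter and protein sequences were not analysed here, and results of some genes are not reported here.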

Additional observations from a re-analysis of the deposited data

Results flagged for a closer look

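In groups of 4 to 10 birds, 1 bird of the named members lay farther from its nearest neighbour than Dixon's 95% critical value allows in 21 of 130 groups tested, in 13 libraries. Chance alone flags about 1 group in 20 where values are normal and groups independent. Neither was tested for these FPKM values, and the groups share the same libraries. The 21 can therefore not be read as an excess.

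Several flags fell in single libraries. Control library 1315 of day 32 had 66.4 FPKM of SLC1A2 against 1.74 in its nearest neighbour, 58.8 of SLC1A3 against 31.5, 17.5 of SLC17A6 against 1.33 and 7.05 of SLC7A4 against 2.49. Control library 1420 of day 42 had 6.64 FPKM of SLC6A11 against 0.237, 23.4 of SLC1A3 against 11.4 and 0.607 of SLC7A11 against 0.169, together with the highest GFAP of that day, 11.4 FPKM. Control library 1552 of day 22 was low, with 34.2 FPKM of SLC6A9 against 116 and 3.66 of SLC38A3 against 11.3. Control library 1513 of day 26 had 12.6 FPKM of SLC1A2 against 2.95 and 14.1 of SLC36A4 against 4.56, and heat-stressed library 1431 of that day 33.5 FPKM of SLC38A2 against 69 and 2.23 of SLC38A9 against 2.98.

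The other flags were single values. At day 26 they were 2.88 FPKM of SLC1A3 in control library 845 against 21.7, and in heat-stressed birds 2.79 of SLC7A5 against 1.61 (library 1312), 0.0452 of SLC17A6 against 0 (library 1313) and 5.04 of SLC38A10 against 4.4 (library 1511). In heat-stressed birds of day 32 they were 10.3 FPKM of SLC1A2 against 1.39 (library 1307), 4.14 of SLC17A6 against 0.825 (library 1303) and 7.91 of SLC36A4 against 3.8 (library 1305). At day 40 the heat-stressed library 1575 had 2.80 FPKM of SLC17A6 against 0.234.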

How the results depend on the processing

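The count of members called between days 22 and 26 went from 8 to 5 after rescaling to the median gene, to 16 with no minimum fold and to 5 in heat-stressed birds, and was 7 to 9 when single day 26 controls were left out. Between days 22 and 32 it was 5 to 6 without single day 32 controls, and 2 in heat-stressed birds numbered 1200 to 1400, where fewer birds were compared. With gene models of the same ends in both tables fewer genes were tested, and 9 members were called between days 40 and 42 and 6 between days 22 and 42. Leaving out single birds gave 16 to 17 calls between days 40 and 42, 0 between days 22 and 40, 14 between days 22 and 42 without library 1012 and 14 in heat-stressed birds without library 984. The count stayed at 0 in each of 67 further fits of heat. Rescaled to TPM, calls between days 40 and 42 were 6 higher and 12 lower.

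Of 749 values of named members under alternatives, 713 kept direction and side of the threshold, 35 lost the call and 1 reversed. The reversal was that of SLC7A5, which gave 0.0382 in day 42 over day 32 heat-stressed birds numbered 1200 to 1400 (adjusted p = 0.924). In the same comparison 4 other genes lost the call and 8 kept it. SLC1A2 between days 40 and 42 also lost its call with a pseudocount of 0.1 (adjusted p = 0.129). The causes were not tested. FPKM without read depth limits what can be said of low members. No paired analysis was possible because each library number names 1 bird and no groups share a number. Ranges of library numbers, heat-stressed birds in place of controls at days 26 to 40, gene models and the libraries left out at day 42 were chosen as alternatives after seeing the data, except the ranges for days 22 and 42.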
